A study of Mus musculus with 12 samples.

Results

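miR-1a and miR-133 are the muscle miRNAs that are made together from shared transcripts, and they were examined here in small RNA libraries of mitochondria isolated from mouse hearts. The members were the rows mmu-miR-1a-3p, mmu-miR-133a-3p and mmu-miR-133b-3p, with mmu-miR-133a-5p and the 5p arms mmu-miR-1a-1-5p and mmu-miR-1a-2-5p. They were chosen by name, and all 6 were found among the 932 rows of the table. The libraries came from hearts of 6 wild-type (WT) samples and 6 db/db samples, mice whose leptin receptor does not work and which grow obese with diabetes. Both groups were mitochondrial fractions, so whole hearts were not measured. RNA carried over from outside mitochondria was not tested, so no read here is known to come from inside them. The sources used here do not give age, sex, strain background or treatment, and nothing in the labels ties each sample to its own animal. Each p-value therefore reflects only how far the samples differ among themselves, and part of that may be technical.

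In heart and skeletal muscle, miR-1 and miR-133 are switched on by the transcription factors SRF and MEF2, and 1 primary transcript gives both. In skeletal muscle MyoD acts on them too. miR-1 favours differentiation of muscle cells and lowers Hand2 and Hdac4, while miR-133 lowers SRF and restrains growth of the heart muscle cell. miR-133b is the near-identical relative of miR-133a and is made with miR-206. miR-1 has also been described inside muscle mitochondria together with the Argonaute protein Ago2, where it raised translation of mitochondrially encoded messages.

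A RefSeq table of the GRCm38.p6 build matched 2 of the 6 members by name, and only these 2 are shown. They are the guide strand miR-133b-3p and the passenger strand miR-1a-1-5p, from hairpins on different chromosomes. The table of values was made on GRCm39, per the submitters' processing notes, and no position was converted. Capitals mark the seed, bases 2 to 8, which pairs with target messages.
miR-133b-3p: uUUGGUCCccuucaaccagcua
miR-1a-1-5p: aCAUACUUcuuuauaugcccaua
The first lies at chr1:20682834-20682855 on the plus strand and the second at chr2:180389057-180389079 on the plus strand.

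The precursor of miR-133b shows how the arms sit in 1 hairpin. In the following sequence, at chr1:20682769-20682887 on the plus strand of GRCm38.p6, capitals mark miR-133b-5p and then miR-133b-3p.
mir-133b hairpin: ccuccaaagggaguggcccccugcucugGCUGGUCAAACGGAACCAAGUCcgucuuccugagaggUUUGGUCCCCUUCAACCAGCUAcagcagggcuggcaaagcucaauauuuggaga
Mir133b lies in an exon of the long noncoding RNA gene Gm28653 of the GENCODE M21 annotation, on the same strand, 3686 bases after Mir206. RefSeq names the gene there Lincmd1, the muscle RNA linc-MD1. On chromosome 2, Mir1a-1 and Mir133a-2 lie 9254 bases apart, and RefSeq places both in Mir1a-1hg. GENCODE M21 has no other gene over either.

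The libraries held 412749 to 1382046 reads over all listed rows, and levels are given in RPM, reads scaled to a library total of 1000000. One read was worth 0.724 to 2.42 RPM. Reads of 0 in a library allow a level of up to 2.17 to 7.27 RPM (3 reads), which covers counting error only. The fixed heart muscle markers miR-1a-3p, miR-133a-3p, miR-208a-3p and miR-499-5p were above 0 in every library, as the labelled tissue has. Their summed level was 366749 to 420533 RPM in WT and 337987 to 439537 RPM in db/db libraries. miR-1a-3p and miR-133a-3p are members themselves and supply nearly all of this sum, so it is no separate check of the tissue. Over all libraries miR-499-5p averaged 1457 RPM and miR-208a-3p 49.1 RPM. Markers fixed for other cell types also had reads, but whether those cells were present was not tested. Smooth muscle and fibroblast markers (4 of 4 above 0 in every library) summed to 33026 to 46234 RPM in WT and 23978 to 38345 RPM in db/db libraries. Endothelial markers (2 of 2) summed to 18852 to 29569 and 15588 to 25095 RPM, and leukocyte markers (3 of 4 above 0 in every library) to 3225 to 5087 and 2907 to 6701 RPM. Such sums follow their most abundant rows. Mean log2(RPM + 1) was 11.9 for miR-150-5p, 8.20 for miR-223-3p and 2.78 for miR-142a-3p. Signs also differed within lists. The log2 fold change of db/db against WT was -0.72 for miR-223-3p and 0.20 for miR-150-5p (limma adjusted p = 0.109 and 0.717). It was -0.48 for miR-143-3p and 0.45 for miR-214-3p (limma adjusted p = 0.0869 and 0.543). Red blood cell markers (2 of 2) ranged from 853 to 1688 and from 293 to 3736 RPM. The liver marker miR-122-5p was at most 27.5 RPM, and the 2 neuronal markers together were at most 160 RPM. WT 4 and db/db 6 had the fewest reads, 551591 and 412749. By the chi-square per degree of freedom of read counts between pairs of libraries, which grows with depth, WT 5 reached the highest value, 229 with db/db 2, while no pair with WT 4 was above 75.0. The part of other cells in the levels of the members was not tested, and in such bulk libraries fewer cells of a type and less RNA per cell cannot be told apart.

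miR-133a-3p and miR-1a-3p together with miR-133b-3p took up a large part of every library. Summed, the 3 made up 39.1% ± 1.84 of a WT library and 39.8% ± 3.47 of a db/db library (SD, n = 6 per genotype). Among single libraries the share ran from 37.0% in WT 6 to 42.3% in WT 1, and from 34.0% in db/db 6 to 44.2% in db/db 4. The db/db libraries thus reached both below and above the whole WT range.

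**Figure D1:**
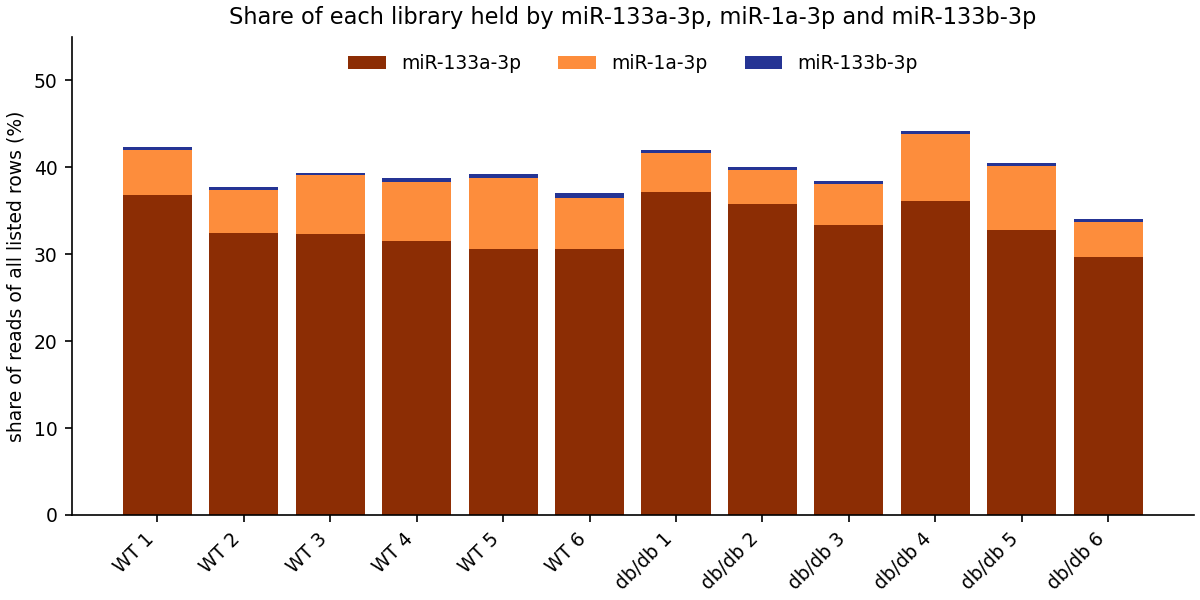
Share of all reads (%) held by miR-133a-3p, miR-1a-3p and miR-133b-3p, stacked, in each of the 12 libraries. The stacks reach 37.0 to 42.3% in WT and 34.0 to 44.2% in db/db libraries, and miR-133a-3p makes up most of each.

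The members kept 1 order of level in all 12 libraries: miR-133a-3p, miR-1a-3p, miR-133b-3p, miR-133a-5p, miR-1a-1-5p. miR-133a-3p exceeded miR-1a-3p 3.79-fold to 9.01-fold, with a median of 5.90-fold. miR-1a-3p exceeded miR-133b-3p 11.2-fold to 25.9-fold. The closest neighbours were miR-133b-3p and miR-133a-5p, at 1.92-fold to 6.24-fold. These are ratios of RPM between mature miRNAs of similar length. Each step of the order thus held in every library in which the lower row had reads. Adapter ligation can favour one miRNA over another, and its part in this order was not tested.

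miR-133a-3p, the guide strand that restrains growth signals in heart muscle, ranked first in every library. Its level had a lowest value of 306292, a median of 319176 and a highest value of 367506 RPM in WT libraries. In db/db libraries the lowest was 296270, the median 345246 and the highest 371152 RPM. The genotypes overlapped. Library 1 was the highest of each genotype, and 5 of 6 db/db libraries lay above the WT median. The log2 fold change of db/db against WT was 0.07 ± 0.11 (SE; limma adjusted p = 0.789), with a 95% confidence interval of -0.15 to 0.30. In linear terms that interval runs from 0.901-fold to 1.23-fold. The spread between libraries was 7.05% of the mean in WT and 8.08% in db/db libraries, against 0.204% and 0.191% expected from counting reads alone.

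miR-1a-3p, the partner that favours differentiation and has been found in mitochondria, had rank 2 in 9 libraries, rank 3 in 2 and rank 4 in 1. It was overtaken by miR-125b-5p in db/db 2, 3 and 6, and by miR-30d-5p as well in db/db 2. Its level ran from 49356 through a median of 62916 to 80790 RPM in WT libraries. In db/db libraries it ran from 39648 through a median of 46471 to 77169 RPM. The db/db values lay far apart. Libraries db/db 4 and 5 stood at 77169 and 73273 RPM, while libraries 1, 2, 3 and 6 stood at 39648 to 47459 RPM, below all WT libraries. The 2 high ones lay above 5 of the 6 WT libraries, so the genotypes overlapped. The log2 fold change was -0.25 ± 0.14 (SE; limma adjusted p = 0.716), with a 95% confidence interval of -0.53 to 0.03. Its spread was 18.8% of the mean in WT and 31.2% in db/db libraries, where counting reads alone would give 0.458% and 0.466%. Without WT 4 and db/db 6 the log2 fold change was -0.15 (limma adjusted p = 0.703).

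miR-133b-3p, whose sequence is shown above, was far rarer than miR-133a-3p. In WT libraries its level ran from 2601 through a median of 4216 to 5500 RPM, and in db/db libraries from 2814 through 3361 to 3793 RPM. WT libraries 5 and 6 were the highest and WT 3 the lowest of all 12. Each of the 6 db/db values was under the WT median and above WT 3. The log2 fold change was -0.29 ± 0.15 (SE; limma adjusted p = 0.600), with a 95% confidence interval of -0.59 to 0.01. The spread was 26.9% of the mean in WT and 11.2% in db/db libraries. miR-133a-3p is near-identical and far more abundant, and the sources used here do not say how reads matching both were assigned, so the level of miR-133b-3p is uncertain. Without WT 5 it was -0.20 (limma adjusted p = 0.728). With both rows summed to 1 the log2 fold change was 0.07 (limma adjusted p = 0.800).

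miR-133a-5p, the other arm of the miR-133a hairpins, ran from 889 through a median of 1132 to 1576 RPM in WT libraries. In db/db libraries it ran from 526 through 978 to 1226 RPM. db/db 6 was the lowest library and WT 5 the highest, and the genotypes overlapped. The log2 fold change was -0.32 ± 0.18 (SE; limma adjusted p = 0.717; 95% confidence interval -0.68 to 0.05). Without db/db 6 it was -0.15 (limma adjusted p = 0.746).

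The 5p arm of miR-1a, whose Mir1a-1 form is shown above, was rare. miR-1a-1-5p had 193 reads over all 12 libraries and miR-1a-2-5p had 0 of 9276707 reads. The level of miR-1a-1-5p ran from 0 through a median of 29.2 to 36.4 RPM in WT and from 2.42 through 18.1 to 31.0 RPM in db/db libraries. It was at 0 in WT 4, where 0 reads allow a level of up to 5.44 RPM (3 reads). It rested on 3 reads in db/db 3 and 1 read in db/db 6. Its log2 fold change was -0.31 ± 0.78 (SE; limma adjusted p = 0.887), and the 95% confidence interval of -1.86 to 1.24 allows a change of either sign. This fitted value depends on the pseudocount and is no bound. The value was -1.11 without WT 4, -0.06 without WT 5 and 0.07 without db/db 6 (limma adjusted p = 0.689, 0.984 and 0.985).

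**Figure D2:**
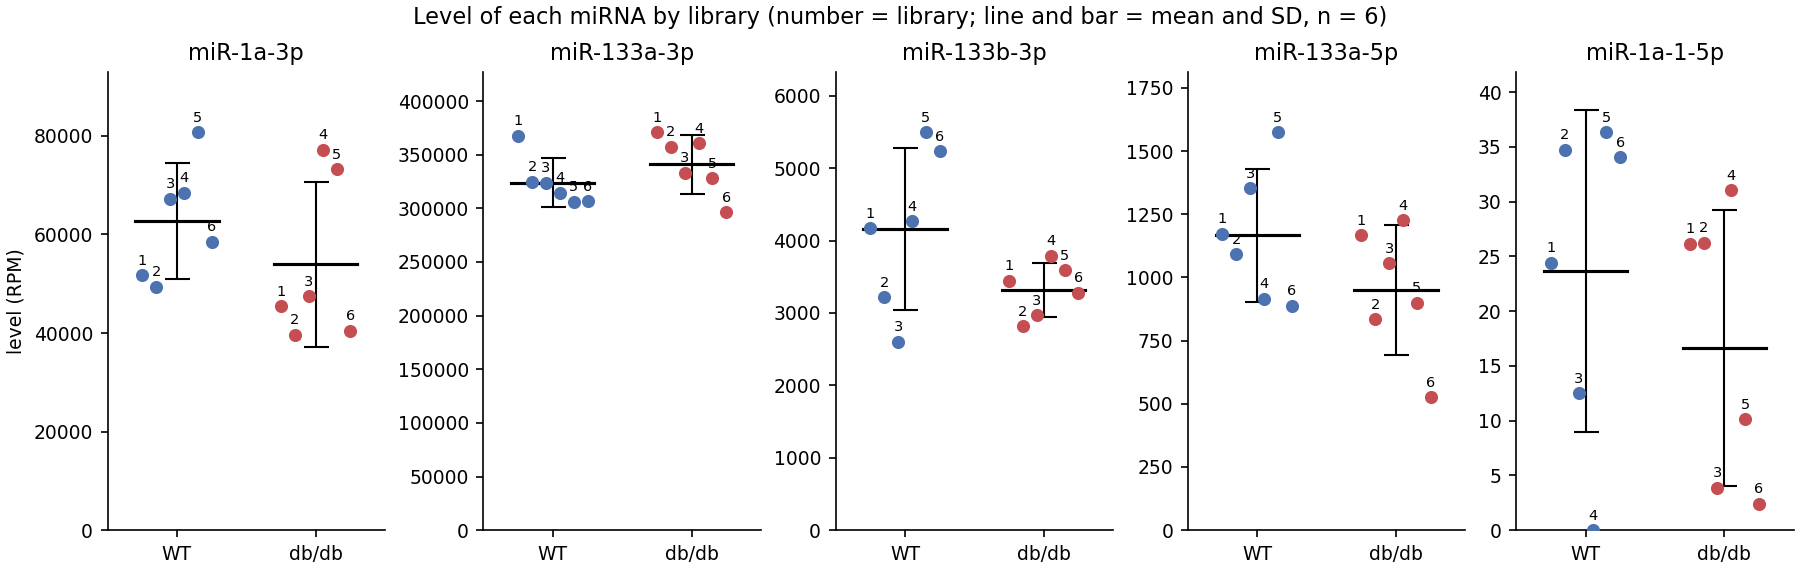
Level (RPM) of each of the 5 detected rows in the 6 WT (blue) and 6 db/db (red) libraries, numbered as in the labels, with the mean and SD. Within db/db libraries miR-1a-3p splits into 2 values of 73273 RPM or more and 4 of 47459 RPM or less, and the db/db values of miR-133b-3p stay under the median of WT.

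As a group the members had 0 of 5 tested rows called between the genotypes. The share called over all 646 rows tested was 0.155%, that is 1 row, which was lower in db/db libraries (limma, Benjamini-Hochberg adjusted p under 0.05). With median-of-ratios scaling 2 rows were called, both higher. An unadjusted p under 0.05 was found for 0 of the 5 and for 58 of the 646, so nothing particular to the members is read from these counts. edgeR on recovered reads called 0 of the 5. DESeq2 called 0 of 4 and gave no adjusted p for miR-1a-1-5p, as for 476 of the 646 rows in all. 4 of 5 log2 fold changes were negative, with a median of -0.29, where 52.3% of all rows were negative, with a median of -0.04. None of the 5 had genotypes that did not overlap, against 0.929% of all rows. The sixth row, miR-1a-2-5p, was at 0 throughout and not tested. The intervals of miR-1a-3p, miR-133b-3p and miR-133a-5p reached down to 0.692-fold, 0.664-fold and 0.624-fold, and these data do not show that the levels were equal.

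**Figure D3:**
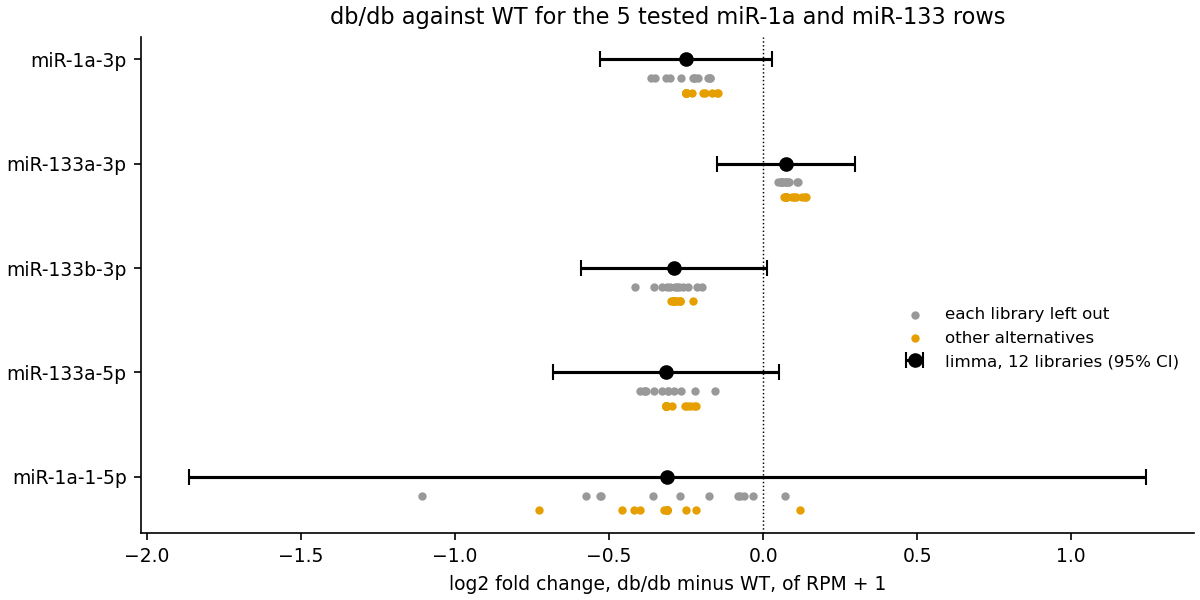
Log2 fold change of db/db minus WT (RPM + 1) for the 5 tested rows, with the 95% confidence interval from limma (black), the fits that leave out 1 library (grey) and the other settings (orange). Every interval covers 0, and miR-1a-1-5p has points on both sides of 0.

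Ratios between 2 rows of a library do not depend on its total, so they ask whether the members changed against each other. miR-133a-3p to miR-1a-3p, 2 products of shared transcripts, averaged 5.35 ± 1.26 in WT and 6.78 ± 1.84 in db/db hearts (SD, 6 libraries per genotype). The single ratios ran from 3.79 in WT 5 to 7.11 in WT 1, and from 4.48 in db/db 5 to 9.01 in db/db 2. The log2 difference of 0.32 ± 0.22 (SE) did not pass (exact permutation test, two-sided, p = 0.162; 0.216 after Benjamini-Hochberg adjustment over 4 ratios). db/db 4 and 5, with high miR-1a-3p, had the 2 lowest ratios of their genotype.

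miR-133b-3p stood at 1.30% ± 0.396 of the level of miR-133a-3p in WT and at 0.977% ± 0.128 in db/db libraries (SD, n = 6 per genotype). The percentages ran from 0.804 in WT 3 to 1.80 in WT 5, and from 0.788 in db/db 2 to 1.11 in db/db 6. Each of the 6 db/db percentages was under the WT median, but WT 3 was lower than 5 of them. The log2 difference was -0.36 ± 0.20 (SE; exact permutation test, two-sided, p = 0.117; adjusted p = 0.216 over the 4 ratios). With each library left out it ran from -0.49 (without WT 3) to -0.26 (without WT 5). The unadjusted p of the same exact test ran from 0.0238 without WT 3, 0.0952 after adjustment, to 0.219 without WT 5.

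The 3p arm of miR-133a exceeded its 5p arm 289 ± 60.4-fold in WT and 381 ± 102-fold in db/db libraries (SD, n = 6 per genotype). WT 5 had the lowest value, 194-fold, and db/db 6 the highest, 564-fold. The log2 difference of 0.39 ± 0.20 (SE) did not pass (exact permutation test, two-sided, p = 0.0866; adjusted p = 0.216). For miR-1a the 3p arm exceeded the 5p arms 1421-fold to 7233-fold in the 9 libraries with more than 3 reads of the 5p arm, with a median of 2119-fold. In WT 4, with 0 such reads, it was at least 12593-fold higher, taking 3 reads in that library as the floor. The log2 difference of 0.06 ± 1.02 (SE) between the genotypes was within the spread (exact permutation test, two-sided, p = 0.950; adjusted p = 0.950), and its sign depended on the pseudocount.

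**Figure D4:**
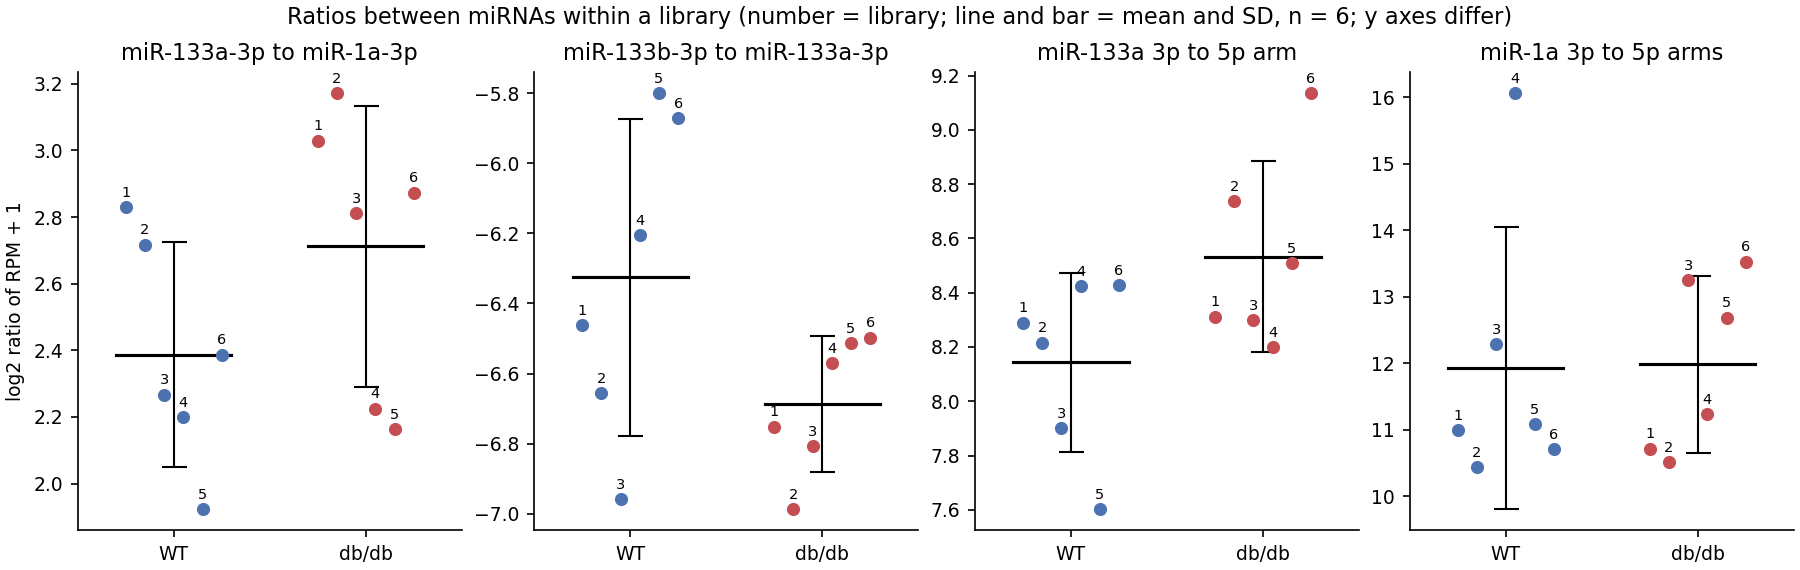
Log2 ratios of RPM + 1 between rows of the same library for 6 WT (blue) and 6 db/db (red) libraries, with the mean and SD. The genotypes overlap in each of the 4 ratios, and WT 4 stands alone in the ratio of miR-1a arms because its 5p arm had 0 reads.

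No pair of the 3 main guide strands had a correlation that passed the test, miR-1a and miR-133a of shared transcripts included. Across the 12 libraries the log2 levels of miR-1a-3p and miR-133a-3p had a Pearson's r of -0.20 (permutation p = 0.532, adjusted p = 0.532 over 3 pairs) and a Spearman's rho of -0.22 (permutation p = 0.499, adjusted p = 0.499). Within genotypes r was -0.60 in WT and 0.18 in db/db libraries. Shares of 1 total are tied to each other. Scaled to the reads outside the members, r was 0.16 (permutation p = 0.619). Without WT 4 and db/db 6 it was -0.45 and rho -0.50 (permutation p = 0.185 and 0.145), and over deviations from the genotype mean r was -0.08 (permutation p = 0.799).

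miR-1a-3p and miR-133b-3p had the highest correlation of the 3 pairs, with an r of 0.49 (permutation p = 0.104, adjusted p = 0.311) and a rho of 0.60 (permutation p = 0.0425, adjusted p = 0.127). It was 0.31 within WT and 0.79 within db/db libraries. Without WT 5 and db/db 4, the 2 libraries farthest from the median of miR-1a-3p, r was 0.31 (permutation p = 0.380). Scaled to the reads outside the members, r was 0.55 (permutation p = 0.0663, adjusted p = 0.199). Over deviations from the genotype mean r was 0.40 (permutation p = 0.197) and rho 0.64 (permutation p = 0.0302, adjusted p = 0.0906). For miR-133a-3p and miR-133b-3p r was -0.28 (permutation p = 0.365, adjusted p = 0.532) and rho -0.24 (permutation p = 0.456, adjusted p = 0.499), with r at -0.30 within WT and 0.09 within db/db libraries. Without WT 5 and db/db 4 r was -0.27 for miR-1a-3p with miR-133a-3p (permutation p = 0.440). Without WT 1 and db/db 1, the 2 libraries farthest from the median of miR-133a-3p, it was -0.44 for miR-133a-3p with miR-133b-3p (permutation p = 0.197).

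**Figure D5:**
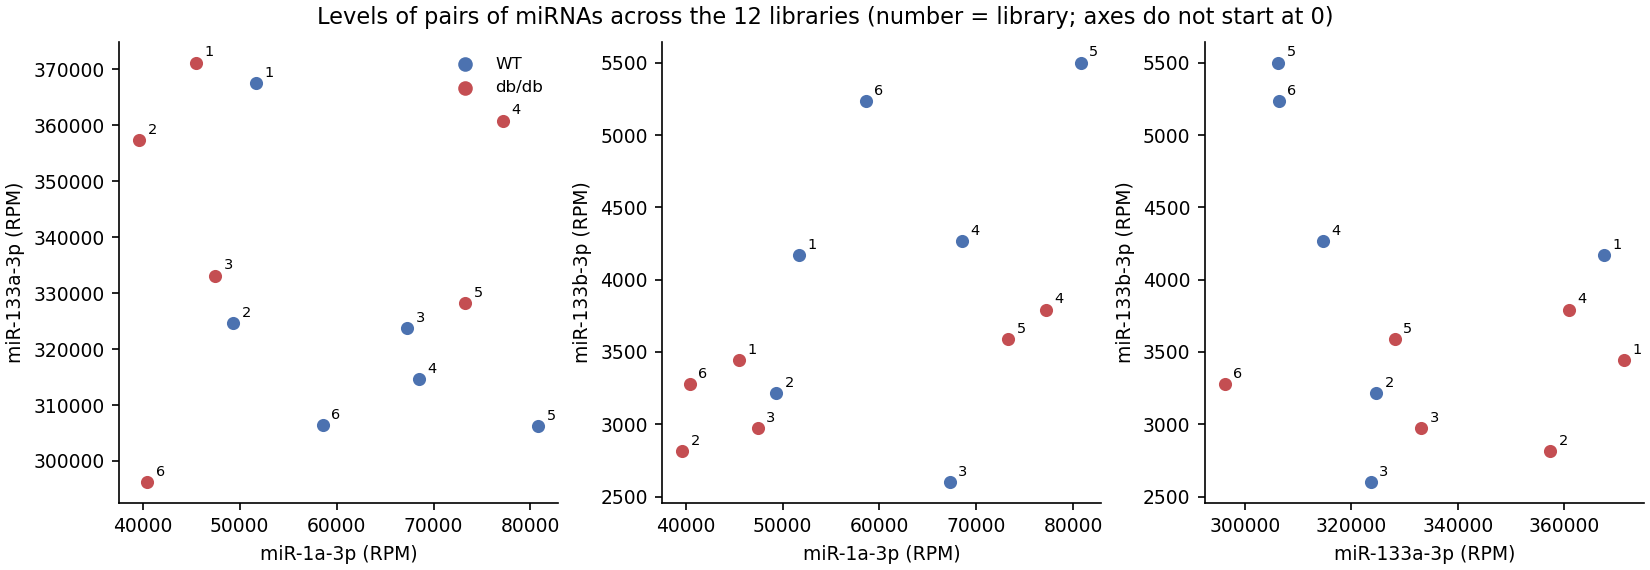
Levels (RPM, axes not from 0) of the 3 pairs among miR-1a-3p, miR-133a-3p and miR-133b-3p in the 6 WT (blue) and 6 db/db (red) libraries. Among the db/db libraries 4 and 5 are the highest in both miR-1a-3p and miR-133b-3p, and the r of 0.79 within db/db libraries includes them.

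The rows most alike to each guide strand were picked by their correlation with it, so it is no result that they exceeded its relatives. Among 146 other rows averaging 100 RPM or more, the most alike to miR-1a-3p over the 12 libraries were miR-29c-3p (Pearson's r = 0.86), miR-192-5p (0.86) and miR-148a-3p (0.84). For miR-1a-3p, miR-133b-3p came 30th and miR-133a-3p 89th. Most alike to miR-133a-3p were miR-107-3p (0.72), miR-185-5p (0.71) and miR-423-3p (0.70), while miR-1a-3p came 88th and miR-133b-3p 97th. Most alike to miR-133b-3p were miR-345-5p (0.81), miR-23b-3p (0.80) and miR-378c (0.80), while miR-1a-3p came 25th and miR-133a-3p 85th. These rows share libraries, depth and a common total, so the values only describe these 12 libraries.

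Among the other striated muscle miRNAs, 8 rows of miR-208a, miR-208b, miR-499 and miR-486a and miR-486b, 7 were tested and 0 passed in either direction, with 3 at an unadjusted p under 0.05 in limma, against 58 of all 646 rows. These 3 were miR-208a-3p, miR-486b-5p and miR-486a-5p, of which the last 2 had nearly equal log2 fold changes of 0.53 each, so they hardly count as separate rows. 4 had positive and 3 negative log2 fold changes, with a median of 0.26 and a range of -1.34 to 1.09. miR-499-5p, from a myosin gene intron, stood at -0.26 (limma adjusted p = 0.717). miR-208a-3p, from an intron of the alpha myosin heavy chain gene and one of the heart muscle markers, stood at a mean of 68.6 ± 42.4 RPM for WT hearts and 29.6 ± 17.1 RPM for db/db hearts (SD, 6 libraries per genotype), with each db/db value under the WT median. Its log2 fold change was -1.34 ± 0.55 (SE; limma adjusted p = 0.504), and that of miR-208a-5p was -0.16 (limma adjusted p = 0.724). The limma adjusted p of miR-486a-5p was 0.0869. miR-133c, a further relative, had 1.14 RPM, a single read, in WT 6 and was at 0 in the other 11 libraries. The miR-206 arms, the miR-1b arms and miR-133b-5p were not analysed here.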

How the data were processed

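Small RNA from cardiac mitochondria of 6 WT and 6 db/db samples was read from 1 table. The authors deposited values named TPM. Since each column sums to 1000000 and holds whole multiples of 1 step, the deposited unit was taken as RPM with no length term; 100% of values gave whole reads within 0.01 of a read. The submitters' processing notes name GRCm39, and the aligner, counter and annotation are not given in the sources used. Members, lists and tests were chosen with earlier results of these data known.

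limma 3.58.1 (R 4.3.3, abundance trend) was fitted to log2(RPM + 1) of the 646 rows averaging 1 RPM or more, and p-values were adjusted by Benjamini-Hochberg over all of them. Ratios were compared by exact permutation (924 assignments, two-sided) and correlations by 100000 resamples. Alternatives were the pseudocount, filter, scaling, trend, weights, replicate block, number factor, left-out libraries, and edgeR 4.0.16 and DESeq2 1.42.0 on recovered reads. Named rows were the members, fixed relatives and the 3 rows most alike to each of 3 members; the 2 miRNAs that overtook miR-1a-3p were named after their values were seen. Plots were made in Python 3.11.15 with matplotlib 3.10.9. Totals of 412749 to 1382046 reads set the counting precision. Libraries were grouped by the genotype in the labels. Same-numbered libraries of the genotypes had deviations correlated at -0.05 to 0.12 over the 646 rows, and the numbers were not treated as pairs. Only 304 of these rows averaged 10 RPM or more. A correlation over many low rows cannot tell whether abundant rows, such as the main members, vary by number. Results with the numbers as blocks or pairs are given below.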

Additional observations from a re-analysis of the deposited data

Results flagged for a closer look

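A search for a library far from its group covered 18 sets of 6 values (5 rows and 4 ratios in each genotype) and found 2. Chance picks about 1 in 20 such sets, which comes to 0.9 of these. WT 1 held 367506 RPM of miR-133a-3p, and the nearest WT library held 324643 RPM, which is 0.700 of the WT range away. Leaving it out gave a log2 fold change of 0.11 for miR-133a-3p (limma adjusted p = 0.705). The log2 ratio of miR-1a 3p to 5p arms was 16.06 in WT 4, and the nearest WT library stood at 12.28, which is 0.671 of the range away. WT 4 had 0 reads of the 5p arms, so the pseudocount sets that value.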

How the results depend on the processing

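None of the 5 tested members passed the threshold in any alternative run, 27 each for miR-1a-3p, miR-133a-3p and miR-133a-5p and 26 each for the other two. miR-1a-1-5p dropped out where rows had to average 100 RPM, and DESeq2 gave it no adjusted p. The sign held for miR-1a-3p (-0.37 to -0.15), miR-133a-3p (0.05 to 0.14), miR-133b-3p (-0.42 to -0.20) and miR-133a-5p (-0.40 to -0.15). For miR-1a-1-5p the log2 fold change was 0.12 with a pseudocount of 0.1 and ran from -1.11 to 0.070 with each library left out. The log2 difference in the ratio of miR-1a arms was -0.37 with a pseudocount of 0.1 and ran from -0.25 to 0.89 with each library left out. Rescaled to the total outside the members, r was 0.16 for miR-1a-3p with miR-133a-3p and 0.0060 for miR-133a-3p with miR-133b-3p. The count of rows called over the whole table, 1 as reported, was 0 with a pseudocount of 0.1 or 10, no filter, a filter at 10 or 100 RPM, that rescaling, no trend, or without WT 4 and db/db 6. It was 2 with median-of-ratios scaling (both higher in db/db), 3 with edgeR (2 higher, 1 lower) and 8 with DESeq2 (6 higher, 2 lower). With numbers 1 to 3 against 4 to 6 as a factor it was 10 (4 higher, 6 lower). The direction of calls thus differed between settings, also among those that kept the RPM scaling. The count ran from 0 to 7 with each library left out. It was 6 when WT 1 or WT 3 was dropped, 3 when db/db 4 was and 7 when db/db 5 was. The cause of these changes was not tested.

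With the sample number as a replicate block the count was 9 (3 higher, 6 lower), and the members again did not pass (miR-1a-3p, limma adjusted p = 0.199). In the paired exact sign-flip test the ratio of miR-133a-3p to miR-1a-3p had p = 0.0313, the smallest that 64 flips allow, and 0.125 after adjustment over the 4 ratios. That ratio was higher in the db/db library at every number. Over all tested rows, only number 5 had both libraries most alike to each other. Whether same-numbered libraries belong together is not given in the labels.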
